A study of Mus musculus with 5 samples.

Results

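For nearby ZFP24 peaks, 10 genes of the Sox family that act in the oligodendrocyte lineage were examined, out of 21703 genes with a protein-coding transcript. The 10 genes, chosen by name, were Sox8, Sox9 and Sox10 (SoxE group), Sox5, Sox6 and Sox13 (SoxD), Sox4 and Sox11 (SoxC), Sox2 (SoxB1) and Sox17 (SoxF). They were chosen with earlier results of these data known, so the list gives no independent support. A peak was counted for a gene when its centre lay within 100 kb of the start of any of its transcripts in the GENCODE M21 basic annotation. By that rule 16 peaks were found, 10 of the 4643 in the progenitor list and 6 of the 1752 in the oligodendrocyte list.

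ZFP24, also called ZFP191, is a zinc finger transcription factor needed for myelination, and the peaks come from chromatin immunoprecipitation sequencing (ChIP-seq) with an antibody against ZNF24, its human name. Wild-type oligodendrocyte progenitor cells (OPC) were isolated by immunopanning from brains of C57BL/6 mice at postnatal day 7, and wild-type oligodendrocytes (OLG) were made from them by culture for 5 days with triiodothyronine (40 ng/ml) in the absence of PDGF. The same cell types from Zfp191-null mice and an input pooled over all 4 were sequenced as well, with 1 library in each of the 5 groups, so nothing below has a replicate check and no difference between the lists was tested. There is 1 list per cell type, which the labels name for the wild-type and the null library alike and which is read here as the peaks of that cell type. The lists give positions only, so the depth and the height of each peak are unknown, and the labelled cell types could not be checked against marker genes.

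SOX proteins bind DNA through an HMG box and are sorted into groups by the sequence of that box. SOX10, with SOX8, drives oligodendrocyte differentiation and myelin gene expression, while SOX9 acts earlier, in the specification of glia. SOX5 and SOX6 hold progenitors back by opposing the SoxE proteins, SOX4 and SOX11 are active in precursors, SOX2 is a factor of progenitors and stem cells, and SOX17 promotes exit from the cell cycle.

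Peaks lay within 100 kb of 5 of the 10 genes, Sox10, Sox5, Sox13, Sox4 and Sox2, and of none of the others. All 5 had an OPC peak, which was 50% of the members against 43.5% of all 21703 genes, a share near the background. An OLG peak was present at 4 of 10, all but Sox5, against 24.2% of all genes. Peaks of both lists lay at those 4 genes, against 15.8% of all genes, and a peak of either list at 5 of 10, against 51.9%. The 16 peaks made up 14 separate sites, with 8 in the OPC list alone, 4 in the OLG list alone and 2 in both. The members had 1.67 OPC peaks per OLG peak, and the whole lists 2.65.

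**Figure D1:**
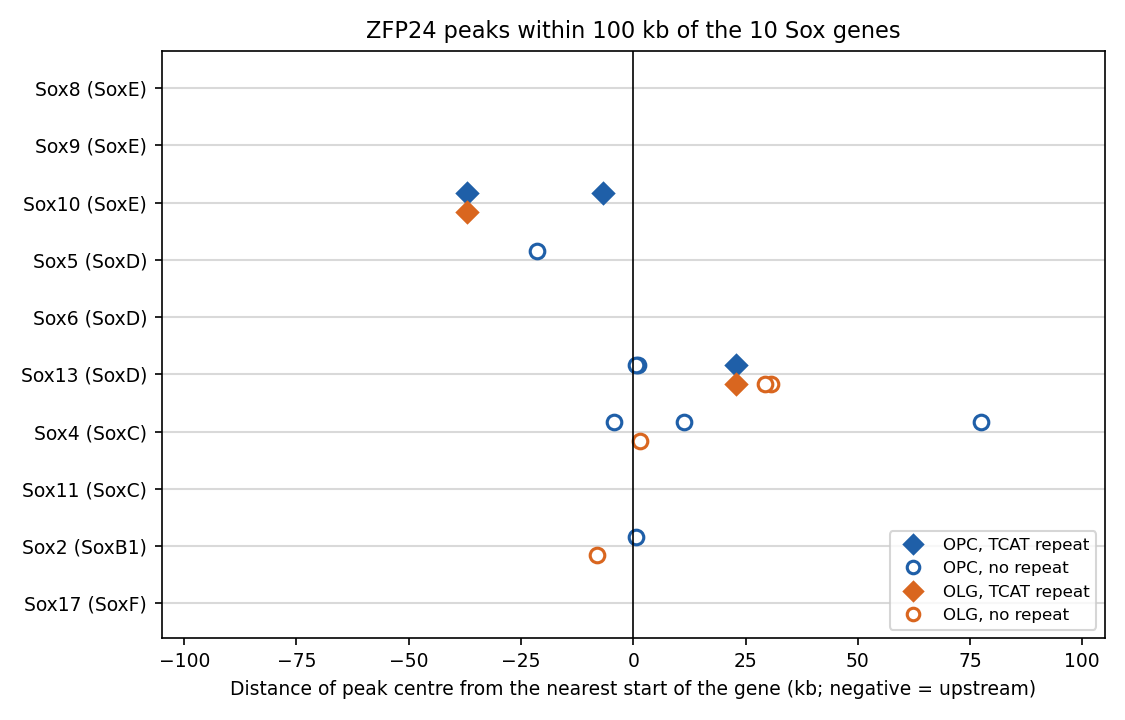
Position of each peak centre against the nearest transcript start of its gene, in kb, with upstream to the left. Each row is 1 Sox gene, blue marks are OPC and orange marks OLG peaks, and filled diamonds are peaks with a TCAT repeat. Sox10 has its 3 peaks upstream, Sox13 its 6 peaks downstream, and Sox8, Sox9, Sox6, Sox11 and Sox17 have none.

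Among the SoxE genes, Sox10 alone had peaks, and all 3 of them held tandem TCAT repeats, the motif bound by ZFP24 in earlier work. Sox10 (chromosome 15, 79154908 to 79165240, minus strand, GRCm38) had OPC peaks 6716 bp and 37025 bp upstream of its start and an OLG peak 36928 bp upstream. The nearer site was in the OPC list alone. The farther site was in both lists, with centres 97 bp apart and 118 bp in common, and it lay 30309 bp beyond the nearer OPC peak. Both sites were in introns of Gm10863, a non-coding gene (79166041 to 79227524, plus strand) that runs away from Sox10 on the opposite strand. No protein-coding start was nearer than that of Sox10 to the site at 6716 bp. The start of Pick1, which encodes a PDZ domain protein, was nearer to the shared site, at 26908 bp from the OPC centre and 27005 bp from the OLG centre.

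The Sox10 sites are shown because their repeats differ in the longest perfect run, 12 bases at the nearer site and 36 at the shared one. Both are from GRCm38 on the minus strand, the strand of Sox10, where the repeat reads ATGA, and capitals mark perfect tandem runs of at least 12 bases. The nearer OPC peak is chr15:79171852-79172060 and the farther OPC peak chr15:79202161-79202369.
Sox10 nearer site: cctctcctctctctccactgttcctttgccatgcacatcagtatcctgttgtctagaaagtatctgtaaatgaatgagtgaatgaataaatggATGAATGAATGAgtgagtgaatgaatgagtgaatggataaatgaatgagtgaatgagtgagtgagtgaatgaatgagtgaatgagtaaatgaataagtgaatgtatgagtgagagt
Sox10 shared site: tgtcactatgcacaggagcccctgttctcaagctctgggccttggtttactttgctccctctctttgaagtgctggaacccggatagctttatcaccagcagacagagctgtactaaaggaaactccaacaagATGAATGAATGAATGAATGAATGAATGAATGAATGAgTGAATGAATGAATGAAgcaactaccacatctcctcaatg

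The nearer Sox10 peak held a single perfect run of 12 bases (79171956 to 79171967), with its middle 5 bp from the peak centre, and another run of 15 bases lay just outside the peak (79171834 to 79171848). The word TCAT, counted on both strands in the 200 bp around the centre, occurred 16 times there, against a median of 1 over all OPC peaks and of 9 over the 567 OPC peaks with a repeat. At 60.7% of positions the base equalled the one 4 bases before it, against a median of 28.6% over all OPC peaks, and 0.732% of OPC peaks were as high. The shared site held runs of 36 bases (79202201 to 79202236) and 16 bases (79202184 to 79202199), separated by 1 base. It had 12 TCAT words in the OPC window and 16 in the OLG window, a count reached by 3.12% of OPC and 0.571% of OLG peaks.

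The other SoxE genes had no peak in their windows. Sox8, which overlaps in function with Sox10, had its nearest OPC peak 113942 bp downstream and its nearest OLG peak 284397 bp upstream. Sox9 lay further away, with the OPC peak at 520377 bp and the OLG peak at 520628 bp, both downstream in introns of Slc39a11. The OPC peak there held a TCAT run of 23 bases. Distances to the nearest OPC peak were shorter for 46.7% of all genes than for Sox8 and for 81.3% than for Sox9, while for Sox10 the share was 11.2%.

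The SoxD genes, whose joined windows were the widest of the 5 groups, held 4 OPC and 3 OLG peaks, of which 6 were in the window of Sox13 and 4 of those nearer to the start of Etnk2. Sox13 (chromosome 1, 133382303 to 133424377, minus strand) had OPC peaks 559 bp and 1088 bp downstream of its first start. These were 529 bp apart, in the first part of the gene, at 68.5% and 60.0% GC, and neither held the repeat or had an OLG peak on it. The third OPC peak and the 3 OLG peaks lay 22949 to 30595 bp beyond the last of the 3 starts, in and around Etnk2, an ethanolamine kinase gene (133363572 to 133380336, plus strand). For those 4 peaks the start of Etnk2 was nearer than any start of Sox13, at 263 to 4937 bp. A count of at least 3 OPC peaks, as at Sox13 and Sox4, was found at 4.63% of all genes, and of at least 3 OLG peaks, as at Sox13, at 0.825%.

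The Etnk2 intron held the other site of both lists, with an OPC peak (chr1:133370143-133370351) and an OLG peak (chr1:133370159-133370379) that had 193 bp in common. It is shown beside the peak nearest to the Sox13 start (chr1:133423714-133423922), because they are the OPC peaks of Sox13 with the lowest and the highest GC content. Both are from GRCm38 on the minus strand, the strand of Sox13, with runs of the repeat of at least 12 bases in capitals.
Sox13, Etnk2 intron: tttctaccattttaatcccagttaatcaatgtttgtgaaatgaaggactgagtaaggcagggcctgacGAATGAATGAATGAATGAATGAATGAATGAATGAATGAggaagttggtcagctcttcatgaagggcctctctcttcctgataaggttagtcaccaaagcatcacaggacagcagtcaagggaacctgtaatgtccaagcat
Sox13, near start: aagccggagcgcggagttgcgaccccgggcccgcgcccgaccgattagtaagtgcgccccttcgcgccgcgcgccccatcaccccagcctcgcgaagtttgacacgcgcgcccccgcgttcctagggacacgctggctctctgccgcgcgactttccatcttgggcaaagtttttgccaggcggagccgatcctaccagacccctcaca
The shared site held 1 run of 38 bases (133370246 to 133370283), whose middle was 17 bp from the OPC and 5 bp from the OLG centre. It had 12 TCAT words in either window and a GC content of 42.0% in OPC and 41.5% in OLG. The site near the start had no TCAT word at all.

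Sox5 had 1 OPC peak by the rule and no OLG peak. It lay in an intron of Sox5 (chromosome 6, 143828425 to 144781977, minus strand), 21473 bp upstream of the last of the 5 starts (143968475 to 143968683), with 3 TCAT words and no tandem run. A second OPC peak fell outside the rule, because the basic transcripts do not reach the end of the gene record. It was centred 159 bp downstream of the 5' end of that record and 572250 bp from the nearest basic start (144781714 to 144781922). The nearest OLG peak was 2292505 bp away, and 90.9% of all genes had a nearer one. Sox6 had no peak inside its body of 568 kb, and its nearest OPC peak was 151240 bp upstream, in an intron of Plekha7.

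Among the SoxC genes Sox4 had 4 peaks and Sox11 none. Sox4 (chromosome 13, 28948919 to 28953713, minus strand) is a gene with no intron, and its OLG peak lay in the coding exon 1400 bp downstream of the start. The OPC peaks were 4286 bp upstream, 11309 bp downstream and 77422 bp downstream, and the last of these lay in an intron of the non-coding gene 2610307P16Rik. The OPC peak nearest to the OLG peak was 5686 bp from it, so no site was in both lists. Sox11, the other precursor gene of the group, had its nearest OPC peak 230431 bp downstream and its nearest OLG peak 927957 bp downstream.

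Sox2 showed a similar picture, with 1 peak of each list at different places. The OPC peak was in the coding exon of Sox2 (chromosome 3, 34650405 to 34652461, plus strand), 611 bp downstream of the start. The OLG peak was 8124 bp upstream, in an intron of the non-coding gene Sox2ot, and the centres were 8735 bp apart. The peaks in the exons of Sox2 (OPC) and Sox4 (OLG) are shown because each lies in coding sequence and has no repeat, at 63.5% and 67.5% GC. They are chr3:34650912-34651120 on the plus strand and chr13:28952203-28952423 on the minus strand of GRCm38, the strands of the genes.
Sox2 exon, OPC peak: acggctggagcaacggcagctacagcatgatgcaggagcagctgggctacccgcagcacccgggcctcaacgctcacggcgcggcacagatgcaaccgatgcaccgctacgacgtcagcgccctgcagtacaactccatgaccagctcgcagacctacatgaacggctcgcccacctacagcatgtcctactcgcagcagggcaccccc
Sox4 exon, OLG peak: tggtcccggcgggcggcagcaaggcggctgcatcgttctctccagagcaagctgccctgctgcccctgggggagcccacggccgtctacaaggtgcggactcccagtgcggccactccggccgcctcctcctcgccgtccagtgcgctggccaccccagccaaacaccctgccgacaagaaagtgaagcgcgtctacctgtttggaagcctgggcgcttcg

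Sox17, the SoxF gene, had the longest distance to an OPC peak of the 10 genes, 5104902 bp, beyond that of 99.3% of all genes. The gene lies near an end of chromosome 1 (4490931 to 4497354, minus strand), with less than that distance of sequence on its downstream side. Its nearest OLG peak was 522277 bp upstream, in an intron of Rgs20. The distance to the nearest OPC peak had a median of 67.7 kb over the 10 genes and of 130 kb over all genes. For the nearest OLG peak the medians were 287 kb and 335 kb.

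**Figure D2:**
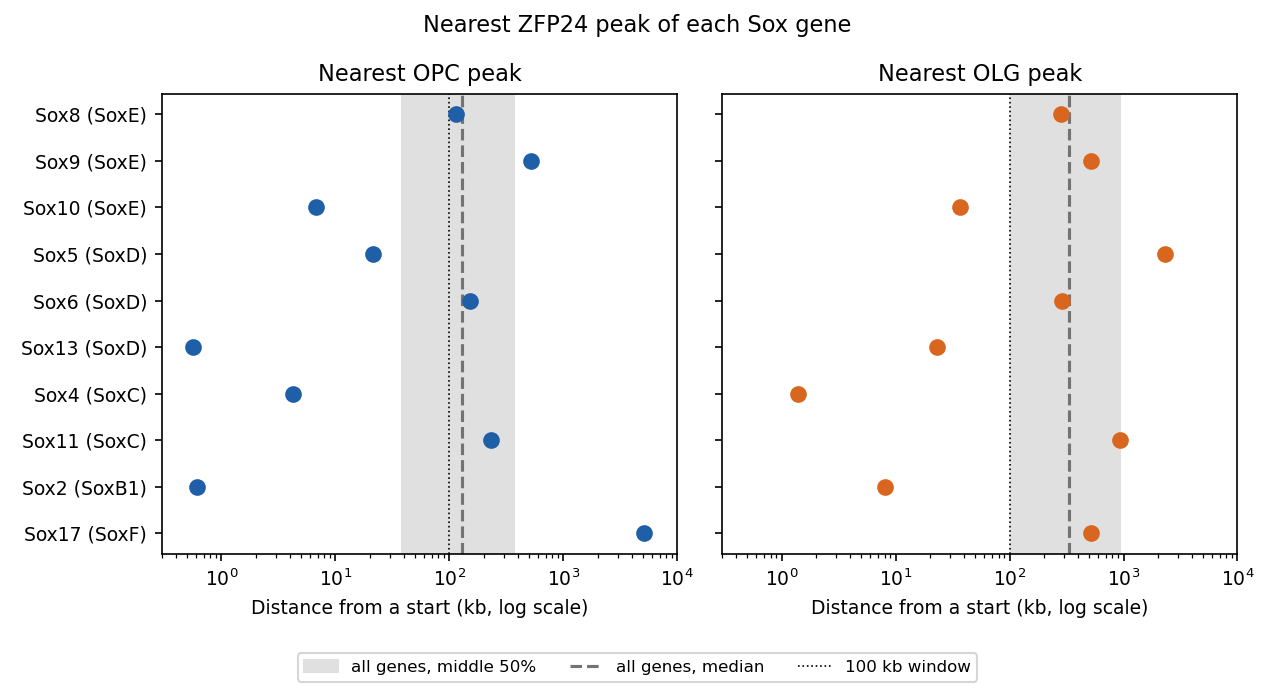
Distance from the nearest start of each Sox gene to the nearest OPC peak (left) and OLG peak (right), in kb on a log axis. The grey band is the middle 50% of all 21703 genes (38.8 to 373 kb in OPC and 104 to 925 kb in OLG) and the dashed line their median. In OPC, 5 genes lie to the left of the band and 2, Sox9 and Sox17, to its right.

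Counted by group, the SoxE windows held 2 OPC peaks and 1 OLG peak at 1 of 3 genes, the SoxD windows 4 and 3 at 2 of 3 genes, the SoxC windows 3 and 1 at 1 of 2 genes, and the window of Sox2 1 and 1. Of the 16 peaks, 6 had a nearer start of another coding gene, all of them in the windows of Sox10 and Sox13. Sox5, Sox6 and Sox13 have several starts far apart, and their windows came to 1.05 Mb against 0.601 Mb for SoxE and 0.400 Mb for SoxC. With the lists joined, the density was 4.99 peaks per Mb of window for SoxE (exact Poisson 95% interval 1.03 to 14.6), 6.70 for SoxD (2.69 to 13.8) and 10 for SoxC (2.72 to 25.6). It was 10 for Sox2 (1.21 to 36.1) and 0 for Sox17 (0 to 18.4). The intervals cover at most counting error and overlap for all 5 groups. They treat peaks as independent, whereas a site in both lists, as at Sox10 and Sox13, adds a peak from each list. With 1 start per gene the SoxD value was 11.7, above that of SoxC, so the order of the groups depends on how starts are counted. The 10 genes together had 4.09 OPC and 2.45 OLG peaks per Mb, against 2.57 and 1.06 in the joined windows of all genes with a coding transcript.

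The share of members with a peak depended on the window. Within 10 kb, 4 of 10 genes (Sox10, Sox13, Sox4 and Sox2) had an OPC peak against 12.7% of all genes, and 2 of 10 (Sox4 and Sox2) an OLG peak against 6.47%. Within 50 kb the counts were 5 against 29.2% in OPC and 4 against 15.1% in OLG. Within 200 kb they were 7, with Sox6 and Sox8 added, against 60.8%, and 4 against 37.6%. At the limit of 100 kb, the farthest peak inside was the Sox4 peak at 77422 bp, and the closest outside were an OLG peak 111849 bp upstream of Sox10 and OPC peaks at 112410 bp (Sox2) and 113942 bp (Sox8). Sox5, Sox9, Sox4, Sox11 and Sox2 had no start of another coding gene in their windows, where the median gene had 3. Of the 2536 genes with none, a group set apart after seeing the data, 30.2% had an OPC peak in the window and 14.5% an OLG peak, against 3 and 2 of those 5 Sox genes.

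**Figure D3:**
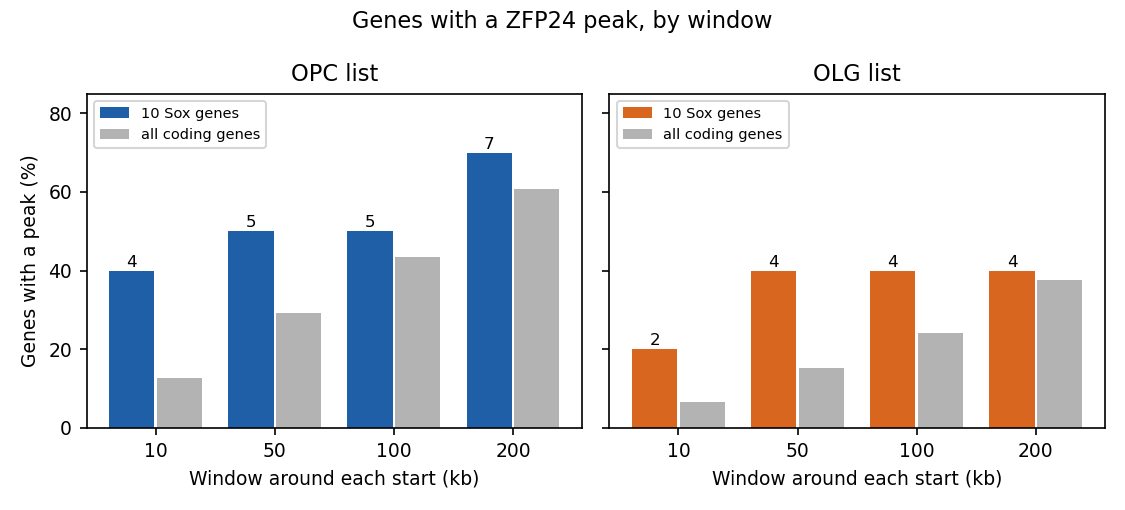
Share of genes, in percent, with an OPC peak (left) or OLG peak (right) within 10, 50, 100 and 200 kb of a start, for the 10 Sox genes (coloured, with the number of genes above the bar) and all 21703 genes (grey). In OPC the gap between the bars is 40% against 12.7% at 10 kb and 50% against 43.5% at 100 kb.

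Of the 16 peaks 5 held a TCAT run of at least 12 bases. They were 3 of the 10 OPC and 2 of the 6 OLG peaks, beside 12.2% of all OPC and 5.71% of all OLG peaks. These were the 3 of Sox10 and the 2 at the Etnk2 intron near Sox13. A repeat peak lay within 100 kb of those 2 genes, against 7.03% of all genes, and a site of both lists at the same 2 genes, against 4.05%. Both shared sites held the repeat, and none of the 12 sites of a single list did except the nearer Sox10 site. In the whole lists 95 of the 254 shared OPC peaks held it. With the lists pooled, the 5 repeat peaks had a median GC content of 42.0% and the other 11 of 61.0%. Each shared site counts once per list in that pool. List by list, the medians for repeat and other peaks were 42.5% and 53.0% over all OPC peaks and 45.0% and 60.0% over all OLG peaks.

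**Figure D4:**
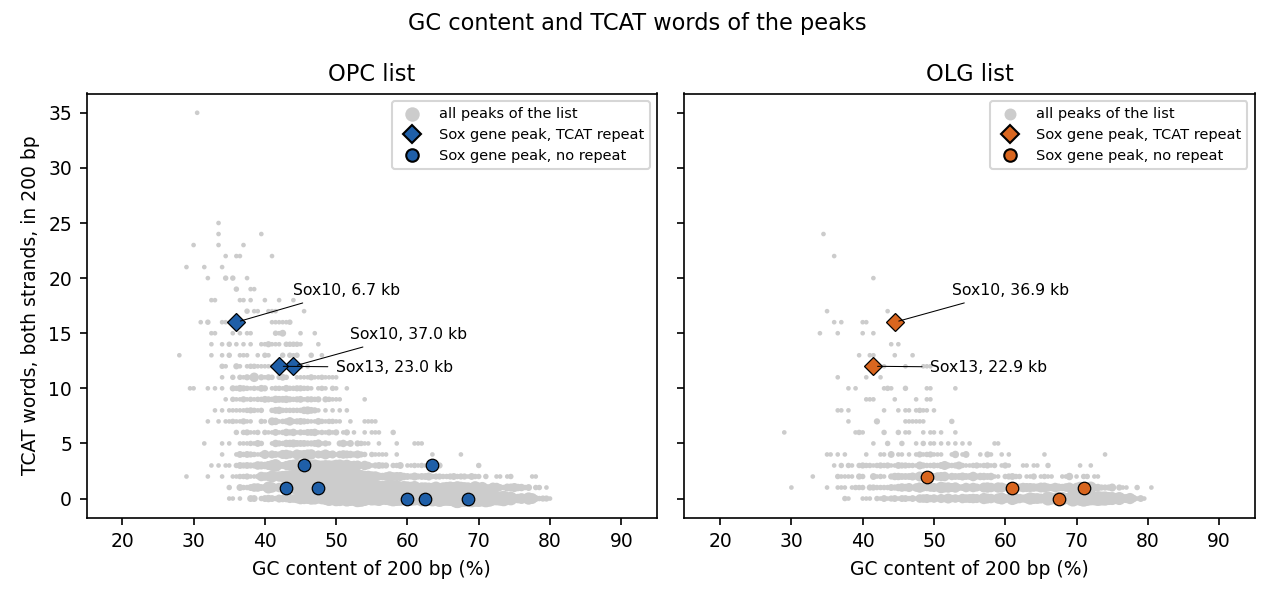
GC content in percent of the 200 bp around each peak centre against the number of TCAT words on both strands, for OPC (left) and OLG (right). Grey dots are all peaks of the list, larger where more peaks coincide, and coloured marks are peaks of the Sox genes. The 5 peaks with a repeat have 12 or 16 words and the other 11 have 0 to 3.

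Most tandem TCAT tracts near these genes had no peak. The windows of the 10 genes held 27 tracts of at least 12 bases, 11 per Mb against 6.41 per Mb in the genome (chromosomes 1 to 19 and X). Of the 27, 4 were at an OPC peak and 3 at an OLG peak, against 4.16% and 0.705% of the 16888 tracts of the genome. Tracts at 1 site share a peak, and the 4 lay at 3 sites. Sox5 had 10 tracts, among them runs of 45 bases (143951494 to 143951538) and 37 bases (144240419 to 144240455), and none was at a peak of either list. A 35-base tract near Sox17, 65582 bp downstream, and a 29-base tract in Sox6 were also without a peak. Among tracts of 32 to 47 bases, 2 of the 5 in these windows were at an OPC peak, those of Sox10 and Sox13, against 17.8% in the genome. The same 2 were at an OLG peak, against 1.98%. Sox8, Sox9 and Sox2 had no tract in their windows. No mappability or read depth is given in the lists, so whether reads could be placed in the tracts without a peak was not tested.

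**Figure D5:**
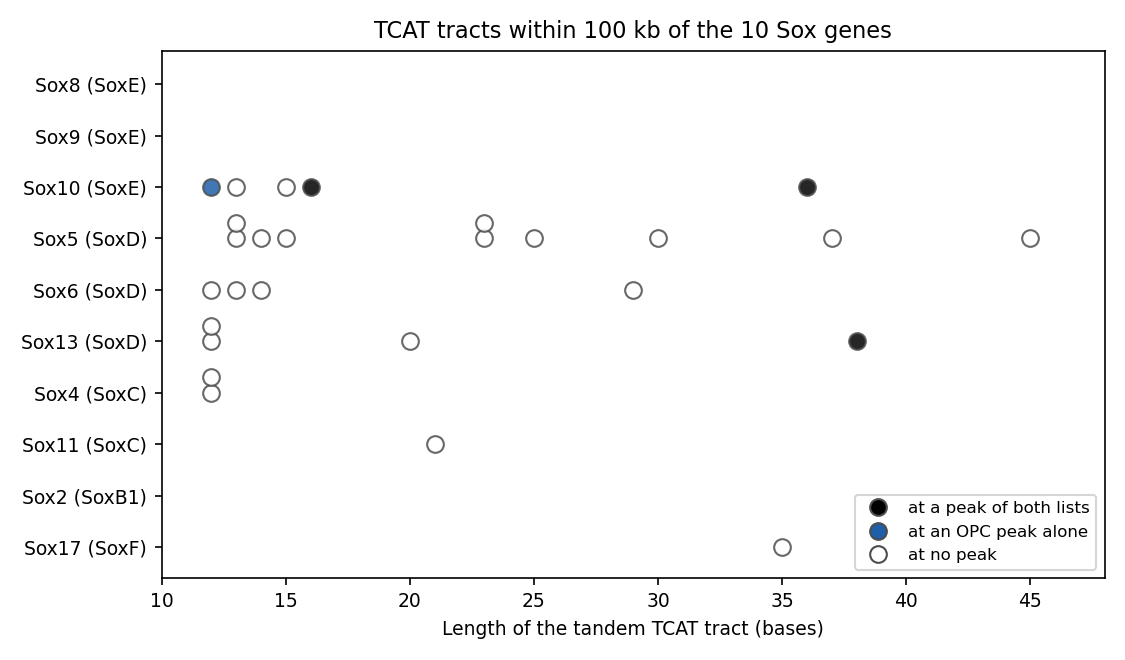
Length in bases of each tandem TCAT tract of at least 12 bases within 100 kb of a start of the 10 Sox genes, with tracts of equal length in a gene drawn above each other. Black tracts lie at a peak of both lists, blue at an OPC peak alone and white at none. Sox5 has 10 tracts, all white, and Sox10 has 3 filled of 5.

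Motifs of SOX proteins were looked for in the 16 peaks. The motif ACAATG, searched on both strands in 200 bp, was in 1 of the 16, the OPC peak 1088 bp downstream of the Sox13 start, and ACAAAG was in none. In the whole OPC list 9.26% of peaks held ACAATG and 13.8% ACAAAG, against 10.7% and 17.4% of windows 2 kb to each side. In the OLG list the shares were 6.05% and 11.1%, against 9.93% and 17.3%.

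The rest of the Sox family, with 9 of 10 genes placed on the chromosomes examined (Sry was not examined), had OPC peaks within 100 kb at 4 genes (44.4%) and OLG peaks at 3 (33.3%). For all genes the shares were 43.5% and 24.2%, so the OPC share was near the background. Sox21, a SoxB gene of neural progenitors, had a site in both lists, with the OPC peak 7341 bp and the OLG peak 7233 bp downstream of its start. The longest TCAT run was 40 bases in the 200 bp of the OPC peak and 25 bases in the 200 bp of the OLG peak. The windows are offset and can cut a run at their edge, and whether both values come from the same tract was not checked. A second OLG peak of Sox21 lay in the 3' untranslated exon of the gene, at 2316 bp. Sox14 had an OPC peak with a 31-base run 25435 bp downstream, and Sox1 an OLG peak without a repeat 10076 bp upstream. The peaks of Sox7 (OPC), Sox18 (OPC) and Sox15 (OLG) were all nearer to the start of another coding gene, at 4 to 372 bp.

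Of 30 partners and targets of Sox proteins in the lineage, 13 had an OPC peak at a distance of up to 10 kb and 5 an OLG peak, or 43.3% and 16.7% against the 12.7% and 6.47% of all genes. These 30 genes were listed with earlier results of these data known, so their shares give no independent support. Only the window of 10 kb was counted for them. The OPC genes included Olig1 (380 bp) and Olig2 (5281 bp), which specify the lineage, Tcf7l2 (1912 bp), a Wnt effector gene, and Zeb2 (311 bp), a SMAD partner. Nfia (207 bp), a gliogenic factor gene that works with Sox9, Egr2 (206 bp), a regulator of Schwann cell myelination, and the zinc finger genes Zfp488 (781 bp) and Zfp536 (9085 bp) had one too. The Zfp536 peak held a TCAT run of 63 bases and the Mag peak, at 6087 bp in a myelin gene, one of 25. Smarca4 (286 bp) and Hdac1 (7304 bp), genes of chromatin enzymes, also had an OPC peak. The OLG peaks were at Nkx6-2 (982 bp), Zeb2 (207 and 902 bp), Nfib (738 bp), Egr2 (95 bp) and Smarca4 (424 bp). Zeb2 was the 1 gene of the 30 with overlapping peaks of the lists within 10 kb.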

How the data were processed

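ZFP24 ChIP-seq of wild-type and null OPC and OLG was analysed from the 2 deposited peak lists. Each has 4 columns (chromosome, start, end, name) and no score or read count. The values used are the peak positions deposited by the authors. BWA and HOMER 4.8.3 with the mm10 build are named in the submitters' processing notes. The sources used here do not give the calling options or the use of the null and input libraries, so effects of depth, threshold and binding on the length of a list cannot be told apart. OPC peaks are 209 bp wide and OLG peaks 221 bp.

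Sequence came from GRCm38.p6 (RefSeq) and genes from GENCODE M21 basic, with 0 peaks past a chromosome end. Distances run from the peak centre to the nearest start, positions are 1-based, and a site was shared where peaks had 1 bp or more in common. A repeat is a tandem TCAT run of at least 12 bases, either strand, any phase, in 200 bp. Python 3.11.15, numpy 2.4.6, scipy 1.17.1 and samtools 1.23.1 were used, and the distance and repeat steps were tested on simulated data. The rule for named genes was all 10 members, other Sox genes with a peak within 100 kb, and partners with one within 10 kb, of which 2 are not reported here by name. Members and lists were chosen with earlier results of these data known, so no list gives independent support. No test was run, with 1 library per group.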

Additional observations from a re-analysis of the deposited data

How the results depend on the processing

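Of 88 values under other settings, 77 stayed within 1.5 times of the reported count or within the interval of the reported density. With a window of 10 kb, OPC peaks fell to 5, OLG peaks to 2, genes with an OLG peak to 2, repeat peaks to 1 and shared OPC peaks to 0, and the densities were 100 per Mb for SoxB1, 50 for SoxC and 16.5 for SoxE. With 200 kb there were 16 OPC peaks. The lower-numbered 50% of each list, by the number in the peak name, whose meaning is not stated, gave 6 OPC and 3 OLG peaks and all 5 repeat peaks. Starts of the comprehensive annotation, chosen after seeing the data, gave 11 OPC peaks, with the second Sox5 peak added. Tracts of at least 8 or 16 bases gave 5 and 4 repeat peaks. No setting could use peak height, and the depth behind the lists is unknown. No paired analysis was possible because each group has 1 library.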

Other observations

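The number in the peak names, whose meaning the labels do not state, was low for the repeat peaks of these genes. Ranked by it within chromosome 15, the shared Sox10 site was 1 of 176 in OPC and 1 of 71 in OLG, and the nearer Sox10 site 3 of 176. On chromosome 1 the shared site in the Etnk2 intron was 11 of 283 in OPC and 5 of 99 in OLG, while the OPC peaks near the Sox13 start were 65 and 160. The Sox13 OLG peaks without a repeat, at 30595 bp and 29383 bp, were 84 and 85 of 99. The Sox2 peaks ranked 27 of 247 in OPC and 65 of 94 in OLG. The Sox4 peaks ranked 22, 109 and 153 of 207 in OPC and 14 of 74 in OLG, and the Sox5 peak 160 of 225. Ranks of the repeat peaks in the whole lists were not compared.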
